A study of Rattus norvegicus with 4 samples.

Results

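The cells described here are 296 fibroblasts of wild-type rat skin that carried many Igfbp2 transcripts together with many transcripts of the fibrillar collagens. They come from a study in which single cells of rat skin (2 libraries) and of rat subcutaneous fascia (2 libraries), the connective tissue sheet under the skin, were sequenced in droplets from the 3′ ends of their transcripts. All 4 libraries are labelled wild type, and the labels give neither strain, sex, age nor treatment, nor whether 2 libraries of a tissue came from separate animals. Per the labels, both tissues were broken down by the same mixture of collagenase, elastase and DNase, and red cells and dead cells were removed, so each library holds the cells that survived digestion. Replicates are called skin 1, skin 2, fascia 1 and fascia 2. Tissue and library preparation cannot be told apart in this design, and p-values between the tissues measure only the spread between these libraries, which may be technical.

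Members were chosen by their own transcript counts. A barcode was kept as a cell with at least 500 genes and at most 20% of its transcript molecules (unique molecular identifiers, UMIs) from mitochondrial genes. A kept skin cell was a member with at least 10 UMIs of Igfbp2, at least 100 of Col1a1, Col1a2 and Col3a1 together and at least 1 of Lum, and with 0 of Pecam1, an endothelial adhesion receptor, and 0 of Ptprc, the leukocyte phosphatase CD45. This left 195 of 7460 kept cells in skin 1 and 101 of 16442 in skin 2, which is 296 of 23902 kept skin cells and of 37722 kept cells in the 4 libraries. Members were 2.61% of kept cells in skin 1 (exact 95% binomial interval 2.26 to 3.002) and 0.614% in skin 2 (0.501 to 0.746), intervals that cover counting error only. No fascia cell met the rule: 0 of 6812 and 0 of 7008 kept cells, which allows shares of up to 0.0440% and 0.0428%. These counts follow from the rule and carry no test.

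IGFBP2 is a secreted protein that binds insulin-like growth factors and holds them away from their receptor, and it also binds integrins. Dermal fibroblasts build the collagen network of the skin: type I and type III collagen form the fibrils, and lumican and decorin are small proteoglycans that coat them and set their spacing. CCL19 is a chemokine for cells that carry the receptor CCR7, mainly dendritic cells and T cells, and is known from the stromal cells of lymph nodes. Fibroblasts of the upper dermis, the lower dermis, the hair follicle and the vessel-associated adventitia carry different markers, which are described below in turn.

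Each library was deposited with between 83852172 and 95777810 UMIs in 7697 to 17527 barcodes. The median member held 14297 UMIs in skin 1 and 9030 in skin 2, above the median kept cell of the same libraries (9039.5 and 2352.5). Because the rule sets a minimum number of UMIs, deeper cells pass it more easily. Collagen-rich fascia cells, which met the rule without its Igfbp2 requirement and serve as the comparison between tissues, numbered 1312 and 343 with medians of 17525.5 and 17100 UMIs. Skin cells that met every other part of the rule with fewer than 10 Igfbp2 UMIs, called Igfbp2-low below, numbered 134 and 326 with medians of 12979.5 and 5327 UMIs. Pairs of libraries shared 16 to 35 kept barcodes, and 0 of them were collagen-rich cells. A doublet caller marked 0 and 2 skin cells and was not used there.

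The members carried fibroblast markers, in part because the rule required Lum and collagen. The rule also set Pecam1 and Ptprc, of the endothelial and myeloid lists, at 0. Of the 12 pan-fibroblast genes listed, 8 were not used by the rule. All 12 pan-fibroblast genes of the marker list had UMIs in the members, among them Dcn (decorin) at 31826 and 27878 CPM (a group's UMIs scaled to a common total, so that groups of different depth can be compared) and Pdgfra, a receptor of mesenchymal cells, at 143 and 95.3 CPM. Summed marker levels of blood endothelium were 4.88 and 3.53 CPM, of lymphocytes 0.976 and 2.65 CPM, of mast cells 1.95 and 0.882 CPM and of myeloid cells 25.4 and 15.9 CPM. Markers of mural cells, the contractile cells around small vessels, summed to 1324 and 1351 CPM, but 1263 and 1249 CPM of this was Ndufa4l2, a mitochondrial protein of hypoxic cells and pericytes, while Rgs5 stood at 0.325 and 0.882 CPM and Acta2 at 0 in both. Keratinocyte transcripts were the exception. The 13 keratinocyte genes matched summed to 2529 CPM in the members of skin 1 and 13404 in those of skin 2, against 33585 and 40409 in the keratinocytes of the same libraries (kept cells with at least 10 Krt5 UMIs and 0 of Pecam1 and Ptprc) and 11.4 and 22.3 in collagen-rich fascia cells. In 15 members of skin 1 (7.69%) and 19 of skin 2 (18.8%) keratins were more than 0.5% of UMIs, and among Igfbp2-low cells this held for 7 (5.22%) and 161 (49.4%). The named genes that were highest in keratinocytes are given below with and without those cells.

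The genes of the rule stood as follows, as a description of how the cells were chosen. Igfbp2 was at 5802 and 4851 CPM in the members, 158 and 112 CPM in Igfbp2-low skin cells, 21.3 and 108 CPM in keratinocytes and 0.605 and 0.164 CPM in collagen-rich fascia cells. A member held between 10 and 401 Igfbp2 UMIs in skin 1, with a median of 66, and between 10 and 246 in skin 2, with a median of 40. The summed UMIs of the 3 collagen genes per member ranged from 111 to 11239 (median 1117) and from 106 to 3908 (median 763). Members were not the cells richest in collagen everywhere: Col1a1 was at 60501 and 47388 CPM in members and at 74610 and 29515 in Igfbp2-low cells, higher in the latter in skin 1 and lower in skin 2. In fascia Col1a1 was at 7577 and 15388 CPM. Lum was at 2211 and 1431 CPM in members, 1391 and 731 in Igfbp2-low cells and 295 and 419 in fascia.

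The limit of 10 Igfbp2 UMIs cuts through a continuous range. Just inside it, with 10 to 14 UMIs, were 10 members of skin 1 and 20 of skin 2, and just outside it, with 5 to 9 UMIs, were 33 and 15 collagen-rich cells. Ccl19 was at 283 and 219 CPM in the cells just inside and at 274 and 194 CPM in those just outside. In the 89 and 283 collagen-rich skin cells with 0 to 2 Igfbp2 UMIs it was at 107 and 25.4 CPM. Of all collagen-rich skin cells, members were 59.3% (53.7 to 64.6) in skin 1 and 23.7% (19.7 to 28.0) in skin 2.

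**Figure D1:**
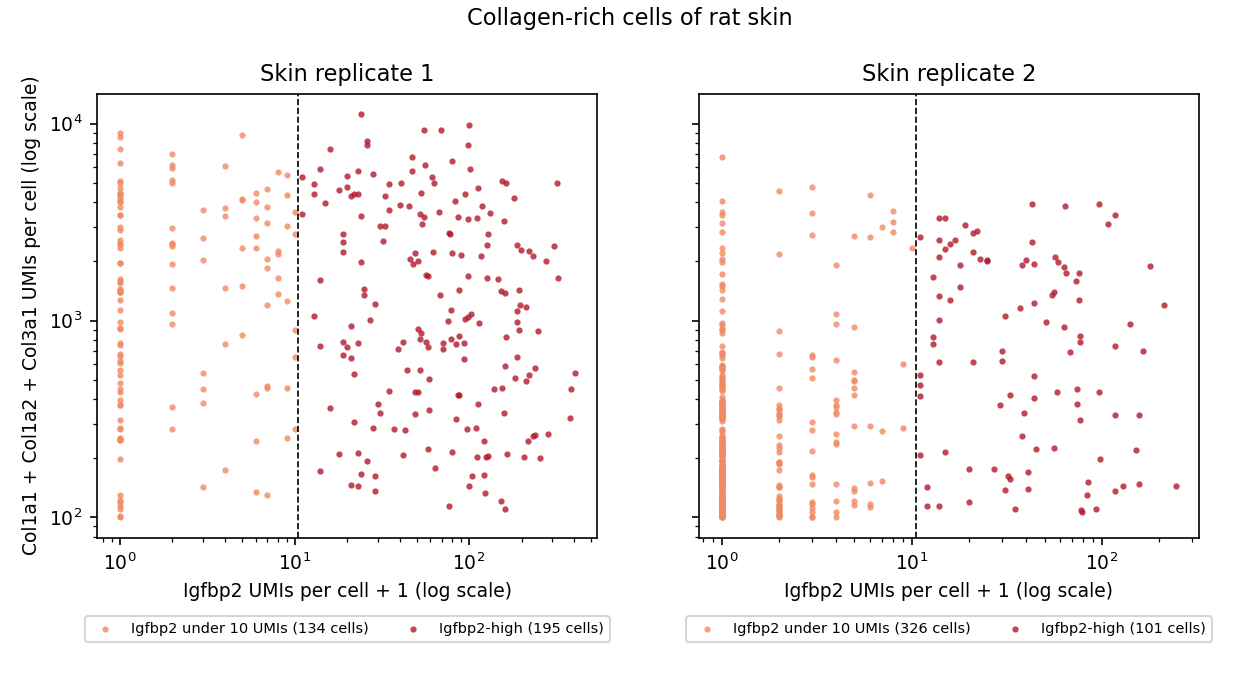
Igfbp2 UMIs plus 1 (horizontal, log axis) against the summed UMIs of Col1a1, Col1a2 and Col3a1 (vertical, log axis), each point 1 cell, 1 panel per skin library. The dashed line marks the limit of 10 Igfbp2 UMIs, which 195 and 101 collagen-rich cells reached, and points lie on both sides of it without a gap.

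Beside Igfbp2, collagens, Dcn and Lum, the genes that led the members against the rest of the kept skin cells included Ccl19, Rbp4, F5, Osr2, Cpz, Ccn5, F13a1 and Mmp2. Because the cells were picked from the same data, these are descriptions with no test. Ccl19 was at 405 and 310 CPM in the members and at 4.96 and 3.41 CPM in all other kept skin cells. Rbp4, which carries retinol in plasma, was at 515 and 662 CPM against 11.9 and 18.5, and F5, coagulation factor V, at 238 and 186 against 7.10 and 6.16. Osr2, a transcription factor of mesenchyme, was at 170 and 183 CPM against 3.79 and 5.06. The list went on with Cpz, a carboxypeptidase that binds Wnt proteins, at 417 and 438 CPM, the matricellular gene Ccn5 at 307 and 424 CPM, F13a1, the A chain of coagulation factor XIII, at 443 and 202 CPM, and Mmp2, gelatinase A, at 1433 and 1180 CPM. In each of these the members of both libraries stood above the rest of the skin of both libraries.

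The upstream sequences of 4 genes that recur in the results below, Igfbp2, Ccl19, Mmp3 and F5, are shown from the RefSeq promoter table of rat build GRCr8, 250 bases up to the transcription start, 5′ to 3′ on the gene's own strand. Capitals mark TGAGTCA, the element bound by AP-1 factors such as Fos and Jun, and TATAAA, each searched on either strand. The 4 genes were chosen after their values were seen, and the deposited files were counted on another build, so no reads were placed on these bases.
Igfbp2: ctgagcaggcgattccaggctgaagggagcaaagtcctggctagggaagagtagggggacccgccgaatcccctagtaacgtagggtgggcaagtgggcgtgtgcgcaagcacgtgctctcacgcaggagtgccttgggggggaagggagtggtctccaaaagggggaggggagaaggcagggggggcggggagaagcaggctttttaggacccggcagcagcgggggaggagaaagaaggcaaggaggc
Ccl19: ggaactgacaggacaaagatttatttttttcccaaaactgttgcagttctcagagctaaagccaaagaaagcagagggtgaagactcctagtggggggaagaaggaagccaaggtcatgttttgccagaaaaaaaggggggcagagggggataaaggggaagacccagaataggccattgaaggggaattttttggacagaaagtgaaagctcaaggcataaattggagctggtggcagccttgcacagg
Mmp3: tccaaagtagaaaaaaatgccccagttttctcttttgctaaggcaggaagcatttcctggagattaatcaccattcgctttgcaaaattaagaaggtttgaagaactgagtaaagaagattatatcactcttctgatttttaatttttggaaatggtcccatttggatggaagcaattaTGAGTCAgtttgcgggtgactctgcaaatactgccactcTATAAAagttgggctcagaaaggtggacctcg
F5: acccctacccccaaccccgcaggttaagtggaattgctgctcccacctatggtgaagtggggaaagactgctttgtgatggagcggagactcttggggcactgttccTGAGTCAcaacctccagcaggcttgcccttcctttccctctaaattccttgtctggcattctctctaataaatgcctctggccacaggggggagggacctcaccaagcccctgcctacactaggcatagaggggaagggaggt
The windows lie at chr9:81864561-81864810 (Igfbp2, plus strand), chr5:61761165-61761414 (Ccl19, minus strand), chr8:12925031-12925280 (Mmp3, plus strand) and chr13:79046407-79046656 (F5, plus strand). Mmp3 holds TGAGTCA 71 bases and TATAAA 32 bases before its start, F5 holds TGAGTCA 143 bases before its start, and the windows of Igfbp2 and Ccl19 hold neither. Among all 33469 promoter windows of this length, 4.05% held TGAGTCA and 12.9% held TATAAA, on either strand. Of the 15 named genes higher in the members than in fascia cells, 13 had a window and 3 of these held TGAGTCA, against 1 of the 11 windows of the 15 named lower genes. The 3 were Epcam, which was higher in keratinocytes than in members, Mmp3 and F5. TATAAA was held by 3 of the same 13 windows and 2 of the 11. These counts are small and carry no test. A match is a run of letters and shows no binding.

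Set against collagen-rich fascia cells, the members had far more Ccl19, Mmp3, F5, Ndufa4l2 and other skin-side genes, and far fewer transcripts of Pi16, Dpp4, Fn1 and Cxcl12, which are high in collagen-rich fascia cells. Of 11692 genes tested on summed counts per library, 1593 were higher in the members (13.6%) and 1432 lower (12.2%), together 25.9%, at an adjusted p below 0.05, with 2 libraries on each side. Differences are log2 of members over fascia cells with their standard error (SE), and the median of all genes tested was −0.07. The shares just given are the background for every count below. Counts cover the listed genes that passed the low-count filter only, and a gene high in 1 tissue passes it through that tissue, so the counts describe the lists and support nothing. Apart from the keratinocyte list, with a median of 11.17 as fitted and 11.02 at the bounds, each list's median is the same with genes of 0 UMIs set at their bound. The contrast mixes tissue with the choice of cells: 1472 of the 1593 genes called higher (92.4%) were within 4-fold in the Igfbp2-low cells of both skin libraries, and 813 (51.0%) were higher still in the keratinocytes of both. Without the requirement on Igfbp2, 66.7% of the calls were shared.

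**Figure D2:**
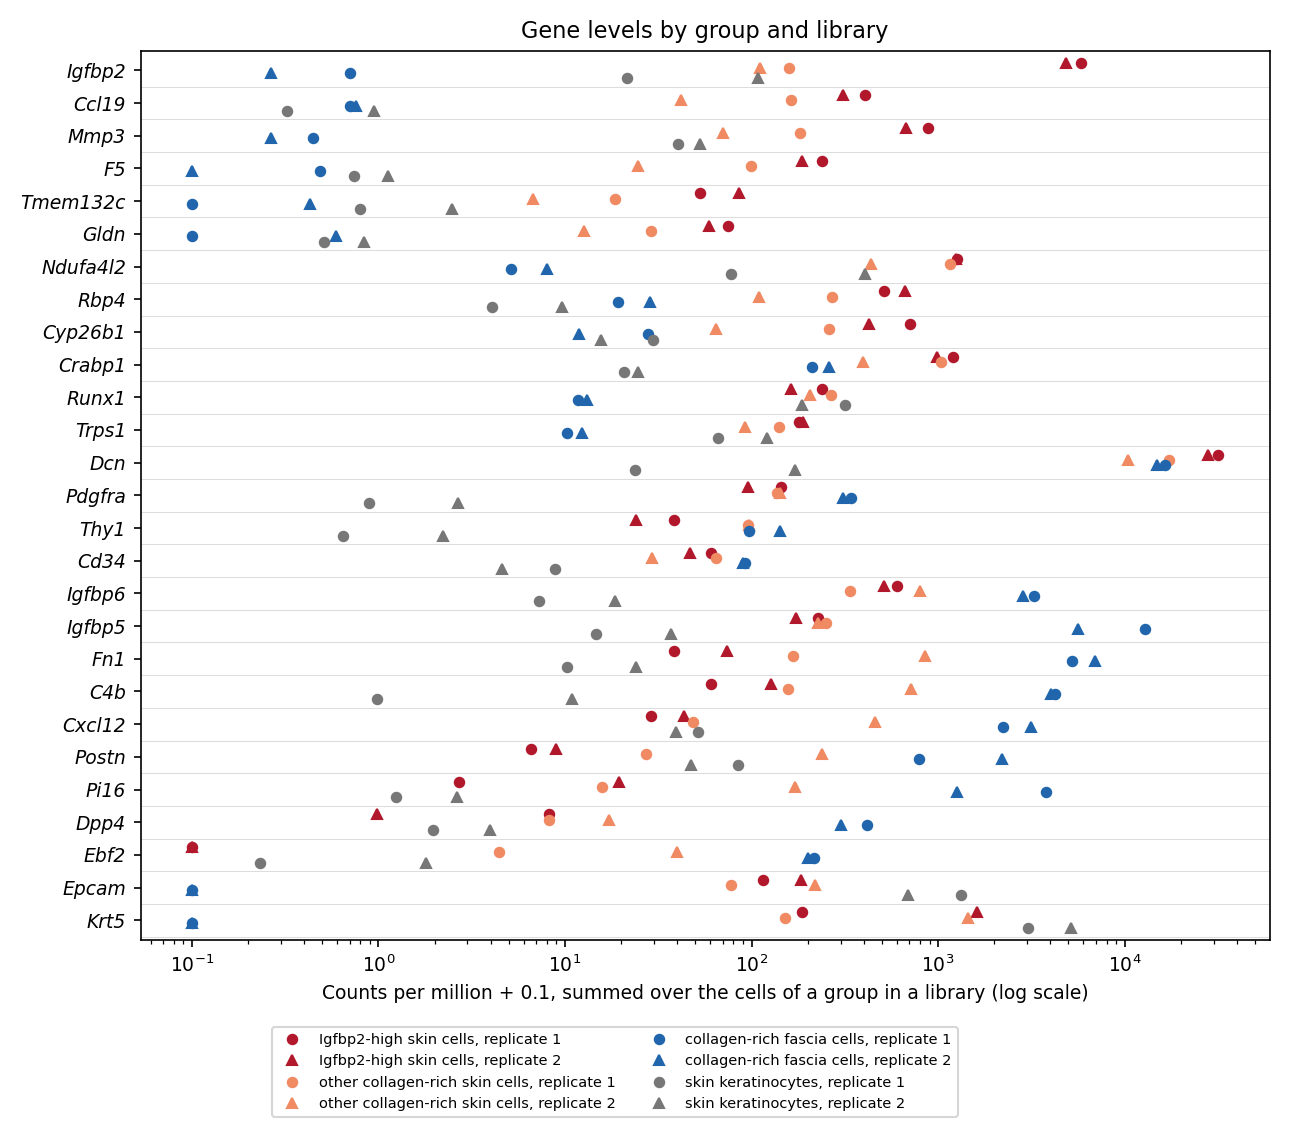
Level of each gene (horizontal, CPM plus 0.1, log axis) in members (red), Igfbp2-low collagen-rich skin cells (orange), collagen-rich fascia cells (blue) and skin keratinocytes (grey), circles for replicate 1 and triangles for replicate 2. Ccl19, Mmp3 and F5 stand far to the right of fascia in the members of both libraries and Pi16, Fn1 and C4b far to the left, with Igfbp2-low cells between the 2 for most of these genes, and Epcam and Krt5 are highest in keratinocytes.

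Of the 15 named genes with the largest differences upward, 7 were higher still in keratinocytes and are described after the others. Mmp3 (stromelysin 1, a matrix protease) was at 888 and 673 CPM in members and at 0.346 and 0.164 in fascia cells, a difference of 11.63 (SE 0.47, adjusted p = 0.000356). F5 was at 0.389 and 0 CPM in fascia cells, a difference of 9.78 (SE 0.54, adjusted p = 0.000432), and Ccl19 at 0.605 and 0.656, a difference of 9.50 (SE 0.38, adjusted p = 0.000356). The members of both skin libraries lay above both fascia libraries in each, which the choice of named genes required. In keratinocytes Ccl19 was at 0.225 and 0.848 CPM and F5 at 0.638 and 1.02, while Mmp3 was at 40.4 and 52.7. Hs6st3, a heparan sulfate sulfotransferase, was at 191 and 265 CPM in members and 0.778 and 0.492 in fascia cells (difference 8.65, SE 0.31, adjusted p = 0.000356), and Ndufa4l2 at 5.06 and 7.88 CPM in fascia cells (7.98, SE 0.38, adjusted p = 0.000397). Gldn, gliomedin, was at 75.1 and 59.1 CPM against 0 and 0.492, where only 3 UMIs were counted in fascia, a ratio of 690 with a counting interval of 234 to 3365. Tmem132c, a transmembrane protein, was at 53.0 and 85.6 CPM against 0 and 0.328, with 2 fascia UMIs and a ratio of 903 (248 to 7497).

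The other 7 named higher genes, Epcam, Serpinb5, Plet1, Serpinb2, Cst6, Aqp3 and Sdc1, were higher in keratinocytes than in the members of both libraries. Epcam, an epithelial adhesion molecule, was at 115 and 184 CPM in members, 1324 and 686 in keratinocytes and 0 in both fascia libraries, at least 1306-fold higher against a floor of 3 UMIs over the fascia group. Leaving out the keratin-rich members lowered Epcam to 26.8 and 13.96 CPM. The same step took Serpinb5 from 54.3 and 182 to 11.9 and 16.8 CPM, Plet1 from 65.1 and 148 to 14.5 and 6.98, Cst6 from 101 and 87.3 to 11.2 and 4.19, Aqp3 from 60.8 and 267 to 9.32 and 8.38, and Sdc1 from 53.0 and 176 to 7.83 and 9.77. Serpinb2, a plasminogen activator inhibitor, stayed at 201 CPM in skin 1, from 255, and went from 280 to 13.96 CPM in skin 2. All 7 were still called higher than in fascia cells, with differences of 4.91 for Sdc1 to 10.96 for Serpinb2. Over that step Ccl19 went to 420 and 380 CPM, Mmp3 to 868 and 867 CPM and F5 to 251 and 242 CPM, and the comparison then called 1493 genes higher and 1397 lower, with 80.8% of the calls shared. All 12 keratinocyte genes tested were higher in the members than in fascia cells, and without keratin-rich cells all 10 tested were, with a median of 7.93. The clusters of members described below, made at a common depth, also bear on this. In cluster 5, which held Krt15 and Krt5, Epcam was at 756 and 368 CPM in skin 1 and 2, against 14.8 and 0 in other members. Serpinb2 was at 1844 and 456 CPM there against 5.56 and 17.1, and Cst6 at 422 and 386 against 3.70 and 8.55. Serpinb5, Plet1, Aqp3 and Sdc1 were not among the leading genes listed for that cluster. What part of these values is keratinocyte RNA was not tested.

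Genes of the adventitial list, markers of the fibroblasts that wrap vessels and fill fascia, were mostly lower in the members. The list was drawn up with earlier results of these data known, so its counts are a description and support nothing. Of 15 adventitial genes matched, 13 passed the filter, 12 were lower and 0 higher, with a median of −4.78, and the counts were also 12 and 0 without either skin library and without keratin-rich cells. Dpp4, a surface peptidase, was at 8.13 and 0.882 CPM in members and at 416 and 303 in fascia cells (−5.59, SE 0.57, adjusted p = 0.00196). Fn1, fibronectin, was at 38.4 and 74.1 CPM against 5236 and 6956 (−6.48, SE 0.44, adjusted p = 0.000657). Every fascia library lay above every skin library in both genes. Pi16, a peptidase inhibitor and the standard marker of these cells, was at 2.60 and 19.4 CPM against 3786 and 1256 (−7.83, SE 0.99, adjusted p = 0.00359), but without the Igfbp2 requirement in skin its adjusted p was 0.0565. Efhd1, a mitochondrial calcium-binding protein, had 0 UMIs in all members and 387 and 182 CPM in fascia cells, at least 482-fold lower against a floor of 3 UMIs over the members. Dact2, an inhibitor of Wnt and TGF-beta signalling, had 2 UMIs in members against 381 and 179 CPM, a ratio of fascia over members of 713 (197 to 5889). Cd34, a surface protein of the same lineage, did not pass the test: it was at 60.5 and 46.7 CPM in members and 91.8 and 89.8 in fascia cells (−0.39, SE 0.23, adjusted p = 0.269).

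Other named genes near 0 in the members were Ebf2, a transcription factor of adipose and mesenchymal precursors, and the chemokine Cxcl13. Ebf2 had 0 UMIs against 215 and 200 CPM in fascia cells, at least 297-fold lower, but its adjusted p was 0.0568 with the Igfbp2 requirement left out. Cxcl13, which attracts B cells, had 0 UMIs against 285 and 95.8 CPM, at least 344-fold lower. Plce1, a phospholipase C, also had 0 UMIs, against 143 and 138 CPM (at least 199-fold lower). Nav3, a microtubule-associated protein, was at 1.95 and 8.82 CPM against 1094 and 1358 (−7.84, SE 0.56, adjusted p = 0.000769). The values of these 4 genes did not overlap between tissues, which the choice of named genes required.

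Markers of the layers of the dermis were called in both directions. Of 12 papillary (upper dermis) genes tested, 6 were higher and 3 lower, with a median of 1.76, and of 10 reticular (lower dermis) genes 2 were higher and 5 lower, with a median of −1.10. The latter count of lower genes was 1 without the Igfbp2 requirement. Among papillary genes Apcdd1, a Wnt inhibitor and target, was at 515 and 587 CPM against 117 and 121 in fascia cells (2.54, SE 0.21, adjusted p = 0.00105), and Col13a1, a transmembrane collagen, at 42.9 and 32.6 CPM against 0.864 and 0.492 (5.998, SE 0.37, adjusted p = 0.000504). Lrig1 and Col18a1 of the same list, also called higher, were higher still in keratinocytes. Lrig1 was at 41.0 and 58.2 CPM in members and 86.5 and 78.0 in keratinocytes, and Col18a1 at 92.1 and 108 against 221 and 126. Dpp4 and Ebf1 of the papillary list were lower. Ebf1, an early B-cell factor also present in mesenchyme, was at 441 and 262 CPM against 1879 and 1700 (−1.98, SE 0.36, adjusted p = 0.011). Of the reticular genes, Mfap4 was higher at 602 and 671 CPM against 89.3 and 201 (2.46, SE 0.42, adjusted p = 0.00895). Cilp was also higher, at 460 and 430 against 136 and 112 (2.18, SE 0.23, adjusted p = 0.00206). Mgp was among the lower ones, at 1.95 and 22.1 against 796 and 908 (−6.20, SE 0.83, adjusted p = 0.00431). Of 20 dermal papilla genes, the inductive fibroblasts at the base of the hair follicle, 6 had no UMI in any member, among the 11 tested 5 were higher and 3 lower, and the higher count was 3 without keratin-rich cells. Sox2 and Corin, defining genes of the papilla, did not pass the low-count filter. Crabp1, a retinoic acid carrier of that list, was at 1206 and 987 CPM against 210 and 261 in fascia cells (2.56, SE 0.29, adjusted p = 0.00258).

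Within the insulin-like growth factor system, Igfbp2, which the rule selected, stood far above fascia, and the binding proteins from Igfbp3 to Igfbp7 were lower or not called. Igfbp5 was at 226 and 173 CPM in members against 12804 and 5599 in fascia cells (−5.16, SE 0.53, adjusted p = 0.00202), and Igfbp6, which prefers IGF2, at 605 and 512 against 3279 and 2855 (−2.11, SE 0.28, adjusted p = 0.00415). Both fascia libraries lay above both skin libraries in each. Igfbp4 was at 5.53 and 22.9 CPM against 175 and 131 (−3.35, SE 0.51, adjusted p = 0.00653) and Igfbp7 at 504 and 469 against 1530 and 1920 (−1.49, SE 0.26, adjusted p = 0.0106), but with the Igfbp2 requirement left out their adjusted p was 0.402 and 0.359. Igfbp3 was at 245 and 176 CPM against 275 and 327 (−0.16, SE 0.28, adjusted p = 0.721). Of the growth factors, Igf1 was at 72.2 and 38.8 CPM against 147 and 214 (−1.30, SE 0.38, adjusted p = 0.0516). Stc1, stanniocalcin 1, a secreted inhibitor of the protease that cleaves binding proteins, was at 84.6 and 35.3 CPM against 1.25 and 2.95 (5.47, SE 0.64, adjusted p = 0.00285). Over 17 tested genes of the axis other than Igfbp2, 5 were higher and 4 lower with a median of −0.46. Without skin 1 the higher count was 1 and without either fascia library it was 3.

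Collagen genes outside the rule differed by type. None of the 5 other fibrillar collagens tested was called in either direction, while of 14 fibril-associated and other collagens 5 were higher and 4 lower (median 0.31). Higher were Col15a1, a basement membrane zone collagen, at 594 and 438 CPM against 63.3 and 107 (2.95, SE 0.37, adjusted p = 0.00369), Col16a1 at 277 and 291 against 61.8 and 89.8 (2.24, SE 0.26, adjusted p = 0.00282), and Col7a1, the anchoring fibril collagen, at 25.4 and 35.3 against 0.994 and 0.656 (5.38, SE 0.34, adjusted p = 0.000504). Keratinocytes held Col7a1 at 42.2 and 66.4 CPM, and without keratin-rich cells the difference was 4.80 (adjusted p = 0.00647). Lower was Col14a1, which binds fibril surfaces, at 22.8 and 14.99 CPM against 1274 and 1162 (−5.60, SE 0.34, adjusted p = 0.000496). The lower count was 2 without skin 2 and 1 without the Igfbp2 requirement.

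Collagen processing enzymes were more often higher than lower, 8 against 2 of 23 tested (median 0.74), but the higher count was 5 without skin 1, 3 without fascia 1 and 3 without the Igfbp2 requirement. Adamts3, the procollagen N-proteinase, was at 16.3 and 15.9 CPM against 0.0432 and 0.328, with 3 fascia UMIs and a ratio of 157 (51.6 to 782). The lysyl oxidases, which cross-link collagen and elastin, split: Loxl4 was at 57.6 and 35.3 CPM against 11.5 and 13.1 (2.32, SE 0.33, adjusted p = 0.00511) and Loxl1 at 69.9 and 69.7 against 469 and 265 (−2.05, SE 0.31, adjusted p = 0.00616). Decorin was called higher at 31826 and 27878 CPM against 16402 and 14999 (1.27, SE 0.36, adjusted p = 0.048), a call that ended without skin 1 (adjusted p = 0.0748), without fascia 1 (0.288), without fascia 2 (0.209), without the Igfbp2 requirement (0.268), with the replicate number as a block (0.106), without top doublet scores (0.079), with at least 200 collagen UMIs (0.068) and with at least 5 Igfbp2 UMIs (0.0634). The difference itself was 1.03 without skin 1, 1.30 without fascia 1, 1.22 without fascia 2 and 0.80 without the Igfbp2 requirement. Elastic fibre genes numbered 3 higher and 4 lower of 16 (median −0.13). Ltbp4, which holds latent TGF-beta on microfibrils, was at 462 and 445 CPM against 59.3 and 85.5 (2.99, SE 0.28, adjusted p = 0.00152), and Mfap5, a microfibril glycoprotein, at 532 and 696 against 2819 and 2071 (−1.67, SE 0.27, adjusted p = 0.00741).

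Matricellular proteins, which modulate cell contact with matrix, gave 9 higher and 7 lower of 20 tested (median 0.72), and 5 and 3 without the Igfbp2 requirement. Ccn2, connective tissue growth factor, was at 453 and 523 CPM against 55.4 and 59.4 (3.42, SE 0.21, adjusted p = 0.000504). Thbs1, thrombospondin 1, was at 1731 and 587 CPM against 5.06 and 16.6 (7.19, SE 0.92, adjusted p = 0.00377), with 424 and 610 CPM in keratinocytes. Postn, periostin, was at 6.51 and 8.82 CPM against 788 and 2192 (−7.32, SE 0.67, adjusted p = 0.00142), and its adjusted p was 0.0761 without the Igfbp2 requirement. The hyaluronan list gave 6 higher and 1 lower of 10 (median 2.09), and the synthases tested differed in sign. Has1 was at 972 and 666 CPM against 128 and 165 (2.84, SE 0.34, adjusted p = 0.003) and Has2 at 33.2 and 37.9 against 209 and 223 (−2.27, SE 0.20, adjusted p = 0.0012). Cd44, the hyaluronan receptor, was at 591 and 394 CPM against 38.4 and 87.1 (3.33, SE 0.49, adjusted p = 0.00586).

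Of matrix proteases and their inhibitors, 6 were higher and 6 lower of 20 tested (median −0.14), and the higher count was 2 without skin 1 and 3 without fascia 1. Beside Mmp3, the collagenase Mmp13 was at 29.3 and 11.5 CPM against 0.0864 and 0, with 2 fascia UMIs and a ratio of 358 (96.6 to 2994). Basement membrane genes gave 6 higher and 8 lower of 18 (median −0.65), with 2 lower without the Igfbp2 requirement and 5 lower without skin 1. The laminin chains split, with Lamc3 at 117 and 111 CPM against 8.77 and 5.91 (4.27, SE 0.26, adjusted p = 0.000501).

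Signalling genes of the Wnt and BMP pathways, which pattern skin and hair, were called often. Among 11 Wnt ligands and R-spondins 5 were higher and 2 lower (median 1.57), and without skin 2 the higher count was 3. Wnt5a was at 48.8 and 67.0 CPM against 24.1 and 24.5 (1.57, SE 0.20, adjusted p = 0.00405), Rspo1, which amplifies Wnt signals, at 135 and 182 against 4.28 and 19.2 (4.17, SE 0.69, adjusted p = 0.00839), and Wnt2 at 2.28 and 0 against 73.3 and 42.7 (−4.78, SE 0.62, adjusted p = 0.00386). These values did not overlap between tissues, and of these 3 genes Rspo1 differed most between the fascia libraries. Among 24 BMP and activin genes 14 were higher and 8 lower (median 1.18), with 7 and 5 without skin 1 and 9 and 4 without fascia 1. Summed, that list stood at 2492 and 2638 CPM in members, 3103 and 2777 in keratinocytes and 3720 and 3235 in fascia cells. The list of Wnt ligands and R-spondins stood at 245 and 414 CPM in members, 138 and 345 in keratinocytes and 242 and 172 in fascia cells. The ligand Bmp4 was at 254 and 273 CPM against 58.1 and 48.6 (2.64, SE 0.20, adjusted p = 0.00086), and its antagonists were both higher and lower. Nog, noggin, was at 17.2 and 17.6 CPM against 0.519 and 0.328 (5.54, SE 0.43, adjusted p = 0.000923), and Chrdl1, chordin-like 1, at 2.60 and 7.06 against 302 and 348 (−5.98, SE 0.38, adjusted p = 0.000523). Inhba, the activin A subunit, was at 46.8 and 24.7 CPM against 0.432 and 0.821 (6.46, SE 0.54, adjusted p = 0.00106).

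The other chemokines of lymphoid stroma did not share the direction of Ccl19. Of 23 genes of that list tested, 7 were higher and 6 lower (median 0.43). Cxcl13 had no UMI in members, and Cxcl12, the CXCR4 ligand, was at 28.9 and 43.2 CPM against 2239 and 3161 in fascia cells (−5.93, SE 0.37, adjusted p = 0.000504), with an adjusted p of 0.0549 when the Igfbp2 requirement was left out. Vcam1, an adhesion molecule of lymphoid stromal cells, was at 4.23 and 0.882 CPM against 59.9 and 86.2 (−4.13, SE 0.49, adjusted p = 0.003), and Il33, an alarmin, at 14.96 and 24.7 against 1103 and 716 (−5.24, SE 0.35, adjusted p = 0.000649). Icam1, the other adhesion molecule, was at 233 and 244 CPM against 19.2 and 25.1 (3.77, SE 0.24, adjusted p = 0.000548). In Igfbp2-low cells Icam1 was at 255 and 285 CPM and in keratinocytes at 260 and 365 CPM.

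Inflammatory cytokines and neutrophil chemokines gave 9 higher and 0 lower of 11 tested (median 2.88), and 4 higher without skin 1. Other skin cells held these transcripts too. The list summed to 5275 and 3364 CPM in members, 4207 and 5717 in Igfbp2-low cells, 3351 and 4454 in keratinocytes and 552 and 715 in fascia cells. The members were thus above both other skin groups in skin 1 and below both in skin 2. The feedback genes Tnfaip3, Nfkbia and Socs3 were called under every setting. Tnfaip3, an inhibitor of NF-kappaB, was at 357 and 186 CPM against 5.75 and 17.7 (4.98, SE 0.68, adjusted p = 0.00456), Nfkbia at 1090 and 1460 against 238 and 264 (2.66, SE 0.24, adjusted p = 0.00142), and Socs3, an inhibitor of cytokine receptors, at 541 and 841 against 74.1 and 104 (3.27, SE 0.30, adjusted p = 0.00146). The chemokines rested on skin 1. Cxcl1, a neutrophil attractant, was at 2471 CPM in the members of skin 1 and 438 in those of skin 2 against 37.0 and 111 (4.70, SE 1.01, adjusted p = 0.0202), and without skin 1 its adjusted p was 0.0562. Ccl2, a monocyte attractant, was at 5299 and 1575 CPM against 60.9 and 301 (4.62, SE 1.00, adjusted p = 0.0204), and without skin 1 its adjusted p was 0.0772.

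Complement and clotting genes were called in both directions. Of 18 complement genes tested 4 were higher and 10 lower (median −1.24), and 1 and 6 without the Igfbp2 requirement. C4b was at 60.5 and 127 CPM against 4252 and 4006 (−5.18, SE 0.40, adjusted p = 0.00094), Cd55, which protects cells from complement, at 32.5 and 44.1 against 430 and 501 (−3.30, SE 0.24, adjusted p = 0.000769), and Serping1, the C1 inhibitor, at 369 and 309 against 1222 and 991 (−1.36, SE 0.26, adjusted p = 0.0134). Masp1, a protease of the lectin pathway, went the other way at 66.7 and 69.7 CPM against 6.70 and 6.56 (3.70, SE 0.21, adjusted p = 0.00044). Of 17 coagulation and fibrinolysis genes 3 were higher and 7 lower (median −0.06), with 3 lower without the Igfbp2 requirement and 5 higher without skin 2. F5 and F13a1 were among the higher ones, F13a1 at 443 and 202 CPM against 20.2 and 18.9 (4.42, SE 0.47, adjusted p = 0.0022). Thbd, thrombomodulin, was at 2.28 and 9.70 CPM against 664 and 299 (−6.32, SE 0.66, adjusted p = 0.00209) and Plat, the tissue plasminogen activator, at 6.83 and 7.94 against 279 and 164 (−4.58, SE 0.35, adjusted p = 0.000929).

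Stress and early response genes were higher in the members than in collagen-rich fascia cells, as they were in Igfbp2-low skin cells and keratinocytes. Of 24 AP-1 and immediate early genes 16 were higher and 0 lower (median 1.40), and of 13 heat shock and chaperone genes 12 were higher and 0 lower (median 2.23). Fos was at 2882 and 4835 CPM against 456 and 645 (3.12, SE 0.36, adjusted p = 0.00275), Atf3 at 1743 and 1503 against 83.8 and 206 (3.82, SE 0.50, adjusted p = 0.00408), and Hspb1, a small heat shock protein, at 3820 and 1751 against 156 and 263 (4.10, SE 0.56, adjusted p = 0.00455). Summed over its list, the AP-1 group stood at 22206 and 27208 CPM in members, 22749 and 32002 in Igfbp2-low cells, 23811 and 27198 in keratinocytes and 6940 and 10650 in fascia cells. The heat shock group stood at 18280 and 10188 CPM in members, 22012 and 14345 in Igfbp2-low cells, 21343 and 13015 in keratinocytes and 2979 and 3664 in fascia cells. In both lists these 3 skin groups stood above the collagen-rich cells of both fascia libraries, and what part the handling of the tissues has in this was not tested. Not all fascia cells were as low. The AP-1 group stood at 19777 and 11778 CPM in mural cells of fascia 1 and 2, and at 15969 and 9300 in endothelial cells.

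Retinoic acid genes were few but far apart: 3 were higher and 3 lower of 12 tested (median −0.32), with 1 lower without skin 1. Rbp4 was at 515 and 662 CPM against 19.2 and 28.4 (4.96, SE 0.31, adjusted p = 0.000504), Cyp26b1, which degrades retinoic acid, at 707 and 426 against 27.8 and 11.8 (5.18, SE 0.54, adjusted p = 0.00205), and the receptor Rarb, itself induced by retinoic acid, at 3.25 and 0.882 against 43.0 and 35.1 (−3.57, SE 0.41, adjusted p = 0.00285). Of 42 transcription factors of skin and mesenchyme tested, 17 were higher and 8 lower (median 0.63), with 11 higher without skin 1 and 11 without keratin-rich cells. Trps1, a transcriptional repressor that acts in the development of mesenchyme and hair, was at 181 and 188 CPM against 10.2 and 12.3 (4.39, SE 0.23, adjusted p = 0.000401). Runx1 was at 238 and 162 against 11.6 and 12.96 (4.40, SE 0.32, adjusted p = 0.000788), with 317 and 187 CPM of Runx1 in keratinocytes. Irx1, a homeobox factor, was at 76.1 and 71.4 CPM against 5.53 and 14.8 (3.28, SE 0.49, adjusted p = 0.00596).

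Growth factor receptors and ligands gave 4 higher and 4 lower of 18 fibroblast growth factor genes (median −0.27) and 5 higher and 7 lower of 16 PDGF and VEGF genes (median −0.61, 3 lower without the Igfbp2 requirement). Fgfr4 was at 33.2 and 46.7 CPM against 0.173 and 0.328 (7.79, SE 0.38, adjusted p = 0.000397), and the ligand Fgf10, which acts on epithelium, at 0.976 and 0 against 25.9 and 29.5, with 3 member UMIs and a ratio of fascia over members of 37.4 (12.8 to 182). Pdgfra was called lower at 143 and 95.3 CPM against 342 and 310 (−1.08, SE 0.29, adjusted p = 0.038), but its adjusted p was 0.0744 without skin 2, 0.0837 without fascia 1 and 0.0539 without the Igfbp2 requirement. Thy1, the surface antigen CD90, was at 38.4 and 23.8 CPM against 97.1 and 141 (−1.53, SE 0.34, adjusted p = 0.0227), with an adjusted p of 0.068 without skin 2 and 0.201 without the Igfbp2 requirement. Nrp2, a co-receptor of VEGF and semaphorins, was at 118 and 114 CPM against 13.5 and 12.5 (3.50, SE 0.20, adjusted p = 0.000445). Sema3a, a guidance cue for axons, was at 112 and 90.0 CPM against 1.599 and 6.89 (5.17, SE 0.67, adjusted p = 0.00397), and Sema3c at 100 and 73.2 against 833 and 705 (−2.78, SE 0.29, adjusted p = 0.00206).

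**Figure D3:**
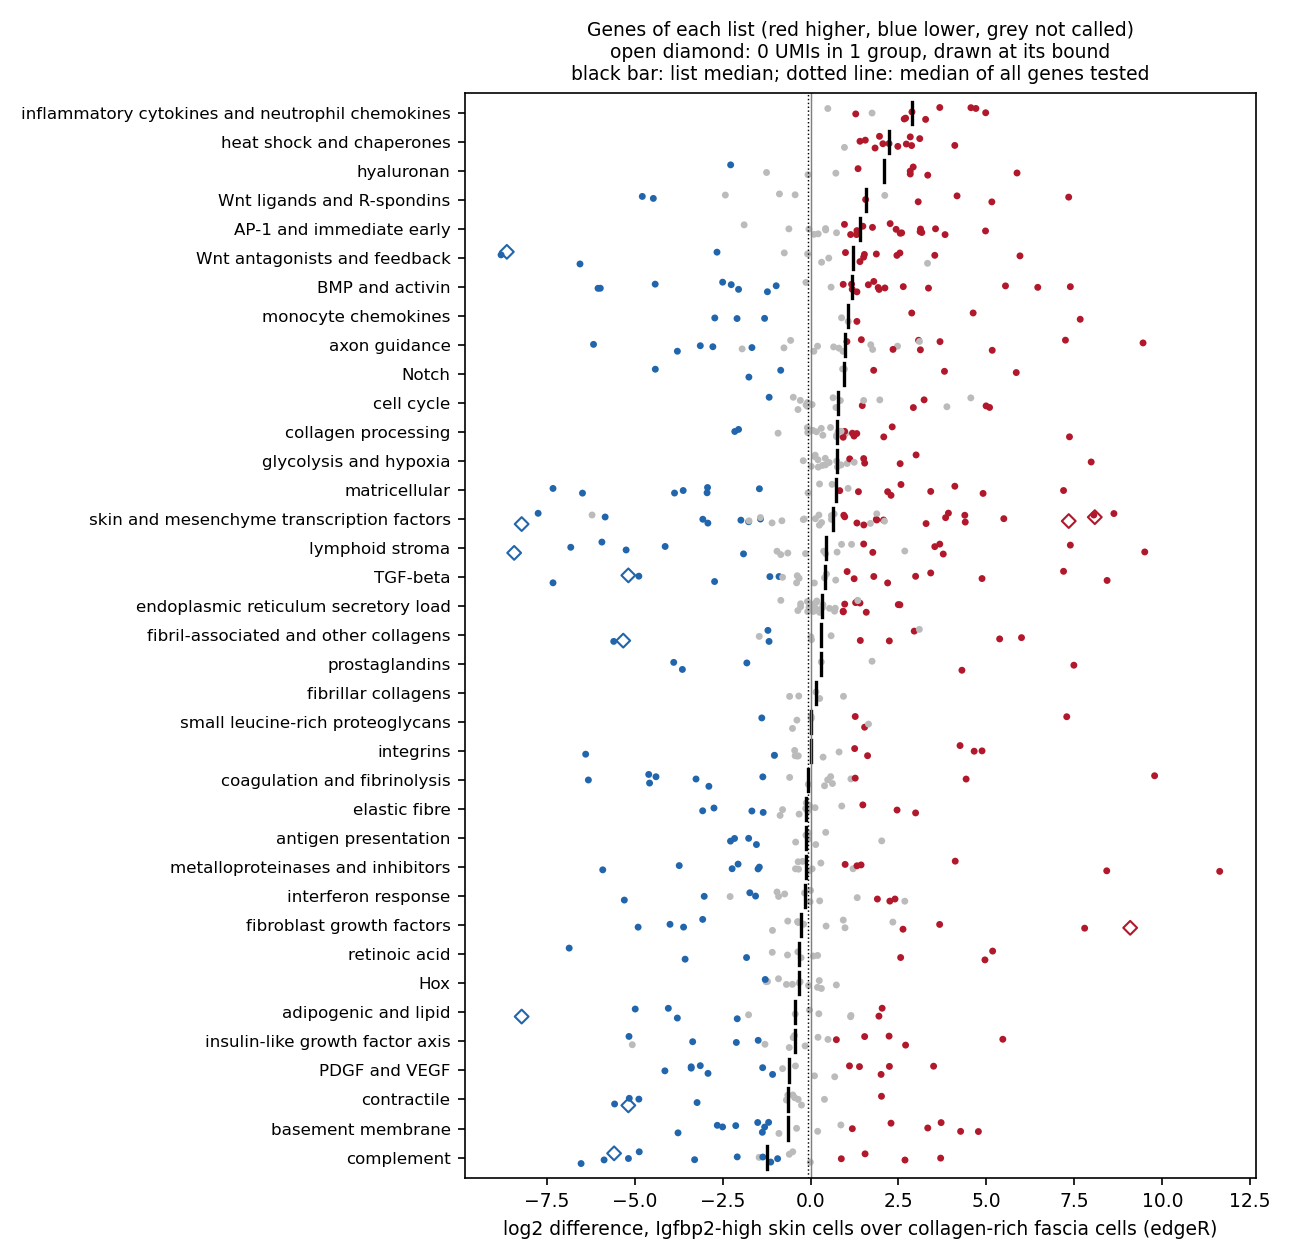
Log2 difference of members over collagen-rich fascia cells (horizontal) for the tested genes of each list (1 row per list), red for genes called higher, blue for lower and grey for not called, with the list median as a black bar and open diamonds for genes with 0 UMIs in 1 group, drawn at their bound. The inflammatory row (9 of 11), the heat shock row (12 of 13) and the AP-1 row (16 of 24) hold genes called higher and none called lower, and the complement row has 10 of 18 called lower.

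Within skin, few genes differed by at least 4-fold in both libraries between the members and the Igfbp2-low cells beside them. This contrast uses the gene that chose the cells and is a description with no test. The count depends on that cut, since more genes passed it in each library alone. Of 2667 genes compared, 2 were at least 4-fold higher in the members of both libraries (0.075%), Igfbp2 itself and Mmp3, and 13 were at least 4-fold lower (0.487%). Mmp3 was at 888 and 673 CPM in members against 183 and 69.9 in Igfbp2-low cells, log2 differences of 2.27 and 3.25. Ccl19 was at 405 and 310 CPM against 162 and 41.6 (1.31 and 2.87), F5 at 238 and 186 against 99.5 and 24.5 (1.25 and 2.87), and Cyp26b1 at 707 and 426 against 261 and 64.1 (1.44 and 2.71). In every one of these the gap was wider in skin 2, where 49.4% of the Igfbp2-low cells were keratin-rich. The Igfbp2-low cells of skin 2 were also shallower, with a median of 5327 UMIs against 12979.5 in skin 1. Whether either has a part in the wider gap was not tested. Masp1 was at 66.7 and 69.7 CPM against 21.1 and 13.7 and Ccn5 at 307 and 424 against 105 and 117.

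Named genes lower in members than in Igfbp2-low cells included Tagln, Apod, Mgp, Col11a1, Lrrc15 and Igfbp4. Tagln, the smooth muscle protein transgelin, was at 0.976 and 7.06 CPM in members against 282 and 348 (−7.16 and −5.44). Apod, apolipoprotein D, was at 2.60 and 33.5 CPM against 2140 and 915 (−9.22 and −4.73), and Mgp, an inhibitor of calcification, at 1.95 and 22.1 against 268 and 589 (−6.51 and −4.68). Col11a1, a minor fibrillar collagen of cartilage, was at 0.651 and 8.82 CPM against 87.6 and 130, Lrrc15, a surface protein of myofibroblasts, at 8.13 and 27.3 against 144 and 249, and Igfbp4 at 5.53 and 22.9 against 88.7 and 179. The members of skin 1 held less of each of these 6 genes than the members of skin 2. Collagen genes did not separate the groups: the differences were −0.30 and 0.68 for Col1a1, −0.21 and 0.62 for Col1a2 and −0.15 and 0.40 for Col3a1. Dcn was higher in members in both libraries, by 0.88 and 1.43.

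Single members varied widely. Ccl19 UMIs ranged from 0 to 84 with a median of 3 in skin 1 and from 0 to 25 with a median of 2 in skin 2, and 47 and 31 members held none. To set shares beside each other, each cell was thinned to 3000 UMIs, which left out 0 and 4 members, 10 and 119 Igfbp2-low cells and 44 and 1350 keratinocytes. At that depth Ccl19 was seen in 49.2% (42.02 to 56.5) and 47.4% (37.2 to 57.8) of members, 33.9% and 8.70% of Igfbp2-low cells and 0.0238% and 0.289% of keratinocytes, and unthinned in 75.9% and 69.3% of members. F5 was seen in 49.7% and 48.5% of thinned members against 28.2% and 5.80% of Igfbp2-low cells, and Mmp3 in 48.7% and 53.6% against 25.8% and 9.66%. Keratinocytes with a UMI were 0.0952% and 0.466% for F5 and 2.33% and 4.24% for Mmp3, below the members in each library. Cxcl1 was seen in 36.4% of members in skin 1 and 16.5% in skin 2, in 28.2% and 43.0% of Igfbp2-low cells and in 15.1% and 21.3% of keratinocytes. For Cxcl1 the members were thus above the Igfbp2-low cells in skin 1 and below them, and below keratinocytes, in skin 2.

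Across the members, cells with more of their UMIs in Igfbp2 had fewer in collagen. The rank correlation of the 2 shares was −0.398 over 195 cells of skin 1 and −0.227 over the cells of skin 2, a description in which the points share a library, and shares of 1 total are tied to each other. The 3 collagen genes were 6.50% of UMIs in members at or above the median Igfbp2 share and 17.9% below it in skin 1, and 6.57% and 12.4% in skin 2. The genes most like Igfbp2 over the thinned members, 195 and 97 cells, were Gsn (gelsolin, an actin-severing protein), with rank correlations of 0.58 in both libraries, Dcn (0.57 and 0.63), Cilp, a matrix protein that binds TGF-beta (0.40 and 0.53), and Aebp1, a collagen-binding carboxypeptidase homologue (0.40 and 0.32). Most opposite were Col1a2 and Col1a1, both at −0.38 and −0.29, Sparc, a collagen-binding matrix protein (−0.36 and −0.24), and Ecrg4, a secreted peptide precursor (−0.31 and −0.22).

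Clustering the members gave 7 clusters, which describe gradients and are not named as types. The genes named for a cluster were found in the same cells and carry no test. Cluster 1 was of 46 members of skin 1 and 1 of skin 2, and held Cxcl1 at 10156 CPM against 313 in all other members, Ccl2 at 13255 against 2254 and Thbs1 at 4716 against 996. Cluster 0, with 44 and 23 members, held more Has1 (2005 against 601 CPM), the metallothionein Mt2A (3005 against 996) and the growth arrest gene Gadd45g (4358 against 1607). Cluster 2, with 28 and 17 members, was led by Igfbp3 (941 against 138 CPM), Thy1 (230 against 17.5), the vasoactive peptide gene Adm (311 against 39.1) and Stc1 (296 against 40.5), and had Igfbp2 at 9615 CPM. Cluster 3, with 29 and 12 members, was the most collagen-rich: Col1a1 stood at 121990 CPM, with Sparc at 38122 against 17120 and Ecrg4 at 1610 against 568. Cluster 4, with 20 and 16 members, was led by Fos (8194 against 3361 CPM) and Zfp36, a decay factor of cytokine transcripts (3287 against 1210). Cluster 5, with 15 and 19 members, held the keratins Krt15 (8441 against 137 CPM) and Krt5 (2343 against 29.7) and had median depths of 28748 and 20800 UMIs, above those of all members. Epcam (539 against 10.3 CPM), Serpinb2 (1069 against 9.04) and Cst6 (402 against 5.17), named above as higher in keratinocytes, were also among its leading genes. Cluster 6, with 13 and 9 members, was led by Hmox1, heme oxygenase 1 (545 against 141 CPM), Fhit (303 against 75.3) and the chaperone Hsph1 (2227 against 774). Mmp3 was high in cluster 6, at 2106 against 747 CPM, and in cluster 1, at 2248 against 581.

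**Figure D4:**
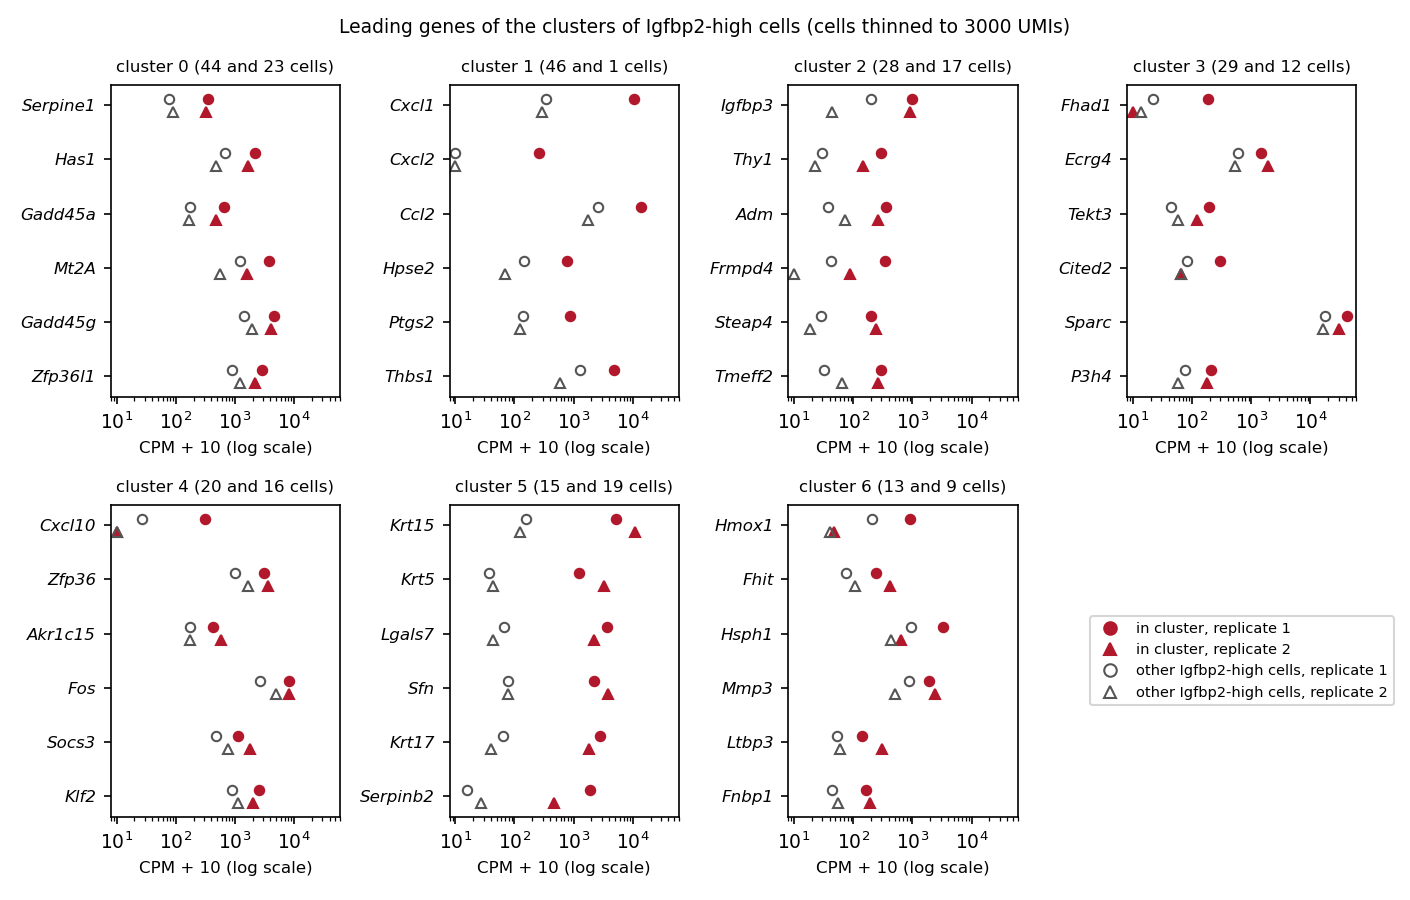
Level of the leading genes (horizontal, CPM plus 10, log axis) in each of the 7 clusters of members, cells thinned to 3000 UMIs, 1 panel per cluster. Cluster 1 stands out by Cxcl1 (10156 CPM) and Ccl2 (13255 CPM) and cluster 5 by Krt15 (8441 CPM).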

How the data were processed

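Skin (2 libraries) and subcutaneous fascia (2) were sequenced as single cells. The values are raw UMI counts per gene and cell that the authors deposited. They used Cell Ranger 6.0.1 and STAR with mRatBN7.2, per the submitters' processing notes, which also name GRCh38.p13, and the matrix headers name Cell Ranger 7.0.0. Deposited matrices held 7697 to 17527 barcodes, already filtered for cells. The table has 30560 genes, and 7162 carry only an identifier.

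Members were found by the rule in the report. Counts were summed per library and group, scaled to CPM, and compared with fascia by edgeR 4.0.16 (R 4.3.3) quasi-likelihood tests with TMM scaling, filterByExpr and Benjamini-Hochberg adjustment over all 11692 genes tested. SE is the log2 difference divided by the square root of F. Count floors are 3 UMIs over a group, and ratio intervals are exact. DESeq2 1.42.0 was an alternative. On simulated counts of 11423 genes for this comparison, 83.2% of 95 genes changed 4-fold and 97.9% of 97 changed 16-fold were recovered, and 12.6% of the calls were false. Members were clustered with Scanpy 1.11.5 (Leiden, resolution 0.7, 1000 variable genes, 15 components). Replicate numbers were not used to pair the libraries in the main test.

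Named genes were, per direction, the 15 largest called differences with at least 50 CPM in each library of the higher tissue, no overlap, and no marker of keratinocytes, blood or endothelium; 12 per direction within skin; 20 leading genes with at least 100 CPM; 10 like Igfbp2; and up to 5 most abundant and 5 most changed genes of a list, from which mainly those called under every alternative were printed. The members, lists and tests were chosen with earlier results of these data known.
One result is not reported here.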

Additional observations from a re-analysis of the deposited data

How the results depend on the processing

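Of 11692 genes tested against fascia cells, 1593 were higher and 1432 lower. Leaving out 1 library at a time gave 954 to 1503 higher and 740 to 1101 lower genes, and the counts were 954 and 740 without skin replicate 1 and 962 and 815 without fascia replicate 1. Thinning every cell to 3000 UMIs gave 1042 and 897, with 8021 genes tested. Testing with no low-count filter gave 2259 lower genes of 18971 tested, and leaving out the Igfbp2 requirement in skin gave 896 lower genes. DESeq2 gave 1741 and 1131. Within skin, comparison cells with at most 2 Igfbp2 UMIs gave 4 genes at least 4-fold higher and 22 lower in place of 2 and 13, and leaving out a library gave 4 to 25 higher and 16 to 88 lower, since fewer libraries then have to show the difference. Members were 3.06% of kept cells in skin 1 with at least 5 Igfbp2 UMIs required. In skin 2 they were 0.444% with at least 20 Igfbp2 UMIs, 0.480% with at least 200 collagen UMIs, 0.926% with at least 1000 genes and 0.499% without keratin-rich cells, an alternative chosen after the data were seen. The share of members of skin 1 with a Ccl19 UMI was 41.0% at 2000 and 58.2% at 5000 UMIs a cell, and that with an Mmp3 UMI was 64.7% in skin 1 and 70.2% in skin 2 at 5000. Igfbp3, which was not called, differed by −0.16 in the full comparison, by −0.57 without skin replicate 1 and by 0.20 without skin replicate 2, by 0.15 with at least 5 Igfbp2 UMIs, 0.13 with no Igfbp2 requirement, 0.19 with at least 200 collagen UMIs, 0.0105 without top doublet scores and 0.11 without keratin-rich cells. Of all 3025 calls, 48.7% were shared when skin 1 was left out, 72.7% for skin 2, 55.1% for fascia 1 and 70.8% for fascia 2. The genes named in the text were mainly picked for calls that held, so they show nothing of the stability of the rest. The cause of these changes was not tested where none is named.

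The labels do not say whether replicate numbers pair the libraries. Deviations of same-numbered libraries correlated at −0.0056. Each tissue has 2 libraries, whose deviations are equal and opposite, so this value cannot decide whether the numbers pair them. With the replicate number as a block the test called 1671 genes higher and 1520 lower. With 2 libraries a tissue, small differences are not detectable, and genes under the low-count filter were not tested.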
